A study of Mus musculus with 6 samples.

Results

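The laminins, the nidogens and the integrins were followed in the epididymal fat of mice on 2 diets. The members were chosen by gene symbol and not by their values, as the protein-coding genes of the laminin chain family, the integrin α and β subunit families and both nidogens in the GENCODE M21 gene set. The rule gave 39 of the 54532 genes in the count table, made up of 11 laminin chains, 2 nidogens and 26 integrin subunits, of which 18 were α and 8 were β subunits. RNA-Seq of whole epididymal fat, the visceral depot of the male mouse, asked whether cells resembling cancer-associated adipocytes occur in obese fat. It covered 3 untreated samples on a normal diet (ND, 4.5% fat) and 3 untreated samples on a high-fat diet (HFD, 60% fat). By the methods, both diets were given to male C57BL/6J mice for 16 weeks from the age of 4 weeks, no transgene or other agent was involved in these groups, and the sequenced HFD-fed mice were 20 weeks old. The labels do not say that each sample came from its own mouse, so every p-value measures the spread between these samples. In bulk tissue, fewer cells of a type and less RNA per cell cannot be told apart.

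Laminins are the large cross-shaped proteins of the basement membrane, each built of an α, a β and a γ chain, and nidogens link the laminin network to collagen IV. Every mature adipocyte, vessel and nerve in fat is wrapped in or lies on such a membrane. Integrins are the αβ receptors with which cells hold on to laminins, collagens, fibronectin and one another, and the β2 family is carried by leukocytes.

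The labels were checked against marker genes. The summed level of 8 adipocyte genes, Adipoq among them, lay between 21449 and 26864 CPM on ND and between 13573 and 29260 CPM on HFD, where CPM is a count scaled to a common library size with the TMM factor. Fabp4 was the largest part of this sum, with a mean of 12407 CPM on ND. Of the 8 genes, 7 had a negative log2 fold change (HFD minus ND), with a median of -0.52. The 1 called by edgeR was Lep, which rose, while DESeq2 called 1 higher and 2 lower. Fabp4 and Lep were named after their values were seen. The summed level of 10 macrophage genes was 926 to 961 CPM on ND against 1798 to 3481 CPM on HFD, and 6 of the 10 rose. HFD3 had the highest macrophage sum and the lowest adipocyte sum of all 6 libraries. ND3 stood apart in 10 epithelial genes, with a sum of 258.6 CPM against 29.3 to 42.7 CPM in the other libraries. Count totals ran from 16996896 to 18859320, and a floor of 3 counts was worth 0.150 to 0.180 CPM, a limit that covers counting error only.

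Of the 39 genes, 38 had enough counts to be tested by edgeR's quasi-likelihood test, and 13 passed an adjusted p-value of 0.05. On HFD 8 rose and 5 fell. This was 34.2% of the members tested, beside 15.9% of all 15751 genes tested, with 9.85% of all genes higher and 6.04% lower. The median log2 fold change (HFD minus ND) was -0.03 over the members and 0.01 over all genes, but laminins and integrins lay on different sides. The 13 laminin chains and nidogens had a median of -0.48, 11 of them with a negative value, and 1 rose while 3 fell. The 25 integrin subunits tested had a median of 0.40, and 7 rose while 2 fell. Without ND1, ND2, ND3 or HFD1, 3 or 4 members rose, and without ND1, ND2, HFD1 or HFD3 at most 3 fell. In CPM the diets did not overlap for 20 members, 52.6% of those tested, beside 40.9% of all genes.

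**Figure D1:**
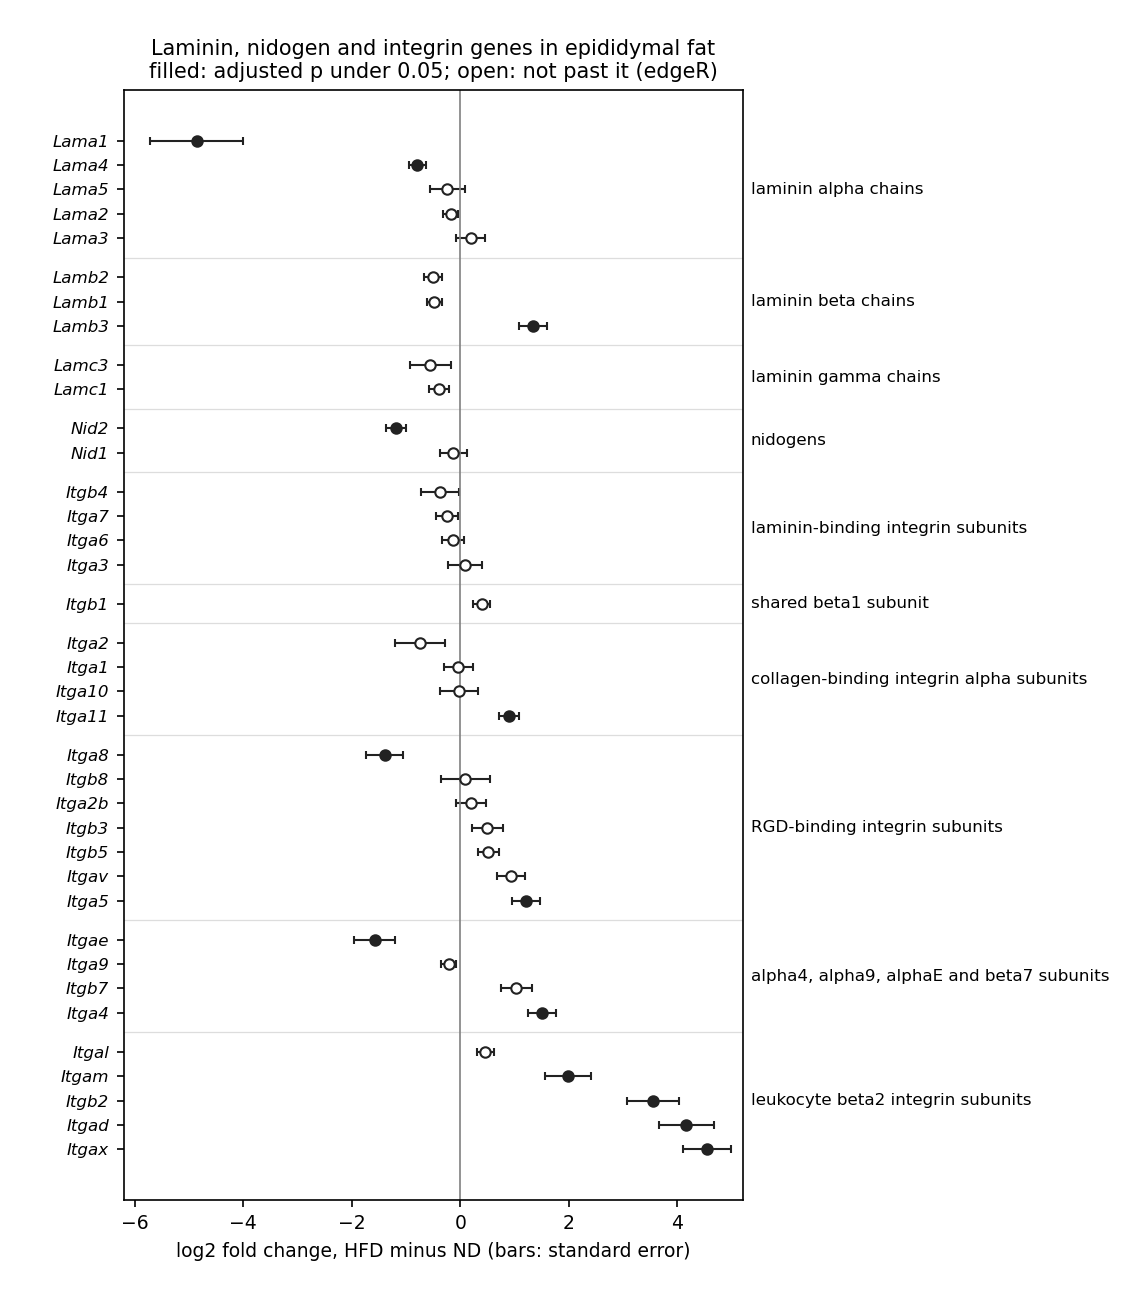
Log2 fold change, HFD minus ND, of the tested genes reported singly, grouped by role, with the standard error as bars. Filled points passed an adjusted p-value of 0.05 by edgeR. The values run from -4.86 for Lama1 to 4.54 for Itgax, and 4 of the 5 β2 integrin subunits are filled on the right.

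The laminin α chain decides which receptors a laminin meets. Lama4, the α chain of vessel walls and fat cells, was the most abundant of the 5 α chains per length. It read 314, 344 and 305 CPM on ND against 186, 209 and 162 CPM on HFD. Every HFD value was below every ND value, and Lama4 fell 1.73-fold (log2 fold change -0.79, SE 0.15, edgeR adjusted p = 0.0169). Lama1, the α chain of the embryonic basement membrane, was scarce. Its counts were 28, 85 and 117 on ND against 0, 3 and 4 on HFD. All 3 HFD libraries lay below the lowest ND library, and the log2 fold change of -4.86 (SE 0.86, edgeR adjusted p = 0.0143) rested on 7 counts in the HFD group. The call of Lama1 was lost without ND2 or HFD1 (adjusted p up to 0.0575 by edgeR) and that of Lama4 without ND1, ND2 or HFD1 (up to 0.0814).

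Lama2, the chain of muscle and nerve basement membranes, stayed near its ND level, with 104, 104 and 106 CPM on ND against 86.5, 82.1 and 109 CPM on HFD (log2 fold change -0.18, edgeR adjusted p = 0.398). Lama5, the broadly used epithelial and vascular chain, and Lama3, the epidermal chain, also overlapped between the diets, with log2 fold changes of -0.24 and 0.19. ND3 had the highest Lama5 value, 98.6 CPM, and HFD3 the lowest, 36.3 CPM. Lama3 lay between 3.83 and 6.97 CPM in all 6 libraries.

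Among the β chains, Lamb3, a chain of the anchoring laminin of skin and other stratified epithelia, was the one laminin gene that rose. It read 5.82, 5.56 and 4.94 CPM on ND against 12, 19.2 and 10.2 CPM on HFD. No HFD library fell into the ND range, and the rise was 2.54-fold (log2 fold change 1.34, SE 0.26, edgeR adjusted p = 0.0188). Lama3, its α chain partner in that laminin, did not pass the test (edgeR adjusted p = 0.642). Without ND1, ND2, ND3 or HFD1, Lamb3 no longer passed (adjusted p up to 0.0731 by edgeR).

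Lamb1 and Lamb2, the common β chains, were each lower in all HFD libraries than in any ND library without passing edgeR's test. Lamb1 read 289.8, 313 and 265 CPM on ND against 191, 223 and 207 CPM on HFD (log2 fold change -0.48, SE 0.14, edgeR adjusted p = 0.0546). Lamb2 read 205, 209 and 230.2 CPM on ND against 159, 177 and 119.9 CPM on HFD (log2 fold change -0.50, SE 0.17, edgeR adjusted p = 0.0848). DESeq2 called both, with adjusted p-values of 0.00249 and 0.0272. The calls of these chains therefore differed with the tool while their direction was the same.

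Lamc1, the γ chain of nearly all laminins, read 446, 605 and 426 CPM on ND against 358, 379 and 389 CPM on HFD. The diets did not overlap, yet the difference did not pass edgeR's test (log2 fold change -0.39, SE 0.18, adjusted p = 0.174). Lamc3 ranged from 10.5 to 24.8 CPM on ND against 7.30 to 15.8 CPM on HFD (log2 fold change -0.55, edgeR adjusted p = 0.343). ND3 held the highest Lamc3 value, 24.8 CPM, and was also the library with the high epithelial sum, whose part in this value was not tested.

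The nidogens moved unequally. Nid2 read 175, 207 and 161 CPM on ND against 82.7, 93.4 and 62.0 CPM on HFD. Its highest HFD value was below its lowest ND value, and it fell 2.28-fold (log2 fold change -1.19, SE 0.18, edgeR adjusted p = 0.0103), a call that was lost without HFD1 (adjusted p = 0.0526 by edgeR). Nid1, the most abundant per length of the laminin and nidogen genes, read 135, 162 and 122 FPKM on ND and 124, 166 and 89.9 FPKM on HFD, where FPKM is the deposited count scaled by transcript length and library size. Its ranges overlapped (log2 fold change -0.13, SE 0.26, edgeR adjusted p = 0.762). The exons of Nid2 overlap those of Rtraf on the opposite strand over 8.4% of their length. Whether counting used the strand was not given in the sources used here, and Rtraf had 1545 to 1993 counts in the 6 libraries.

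Vascular markers were read beside Lama4, Lamb1, Lamb2 and Nid2. The summed level of 6 mural cell genes was 809 to 958 CPM on ND against 434 to 627 CPM on HFD, without overlap. Of these, 1 was called, Rgs5, which fell (log2 fold change -1.16, SE 0.23, edgeR adjusted p = 0.0192). Rgs5 was also the largest part of the sum, with a mean of 442 CPM on ND. Singly, 2 of the 6 did not overlap between the diets. The log2 fold change was negative for 5 and positive for Pdgfrb (0.23). All 7 endothelial genes had negative log2 fold changes, with a median of -0.34, and their sum overlapped, at 1078 to 1411 CPM on ND against 609 to 1144 CPM on HFD. Of these 7, edgeR called 0, while 1 was lower at an unadjusted p under 0.05 and 1 by DESeq2. The 8 adipocyte genes had a median log2 fold change of -0.52, with 7 negative and 1 positive, and their sum overlapped. The part of vessel cells and of adipocytes in the laminin and nidogen results was not tested.

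**Figure D2:**
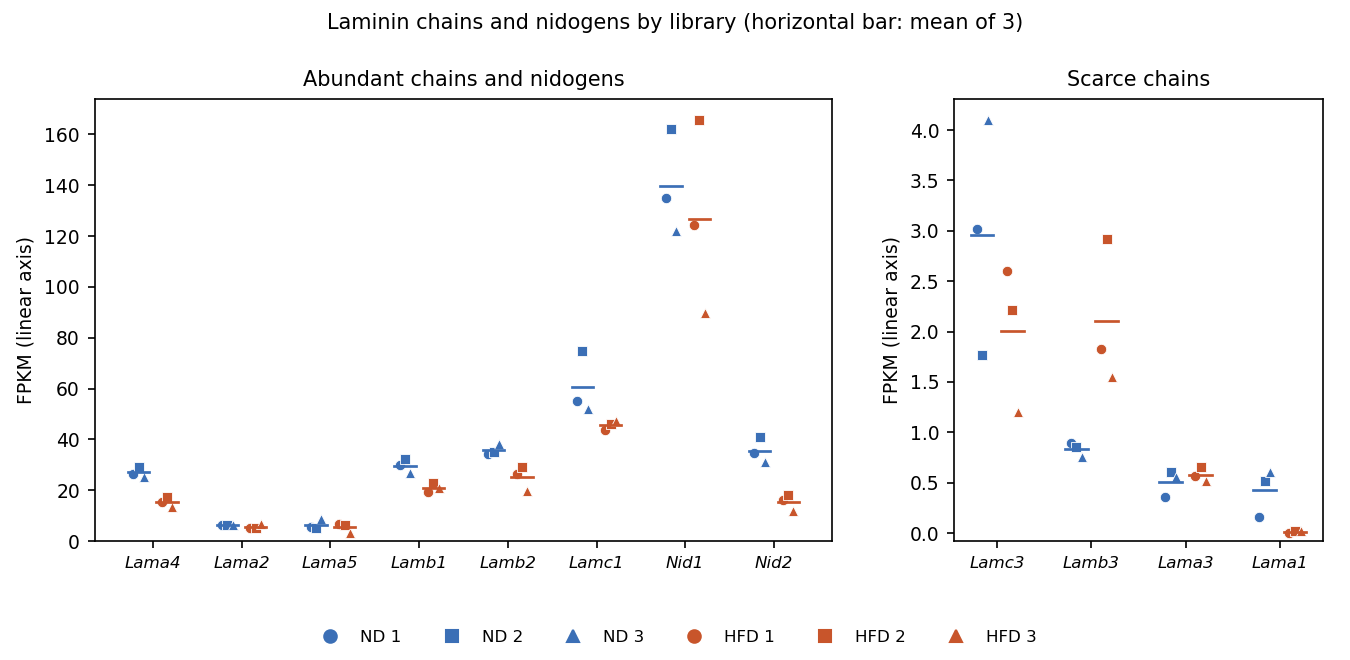
FPKM of the laminin chains and nidogens reported singly in each library on linear axes, abundant genes on the left and scarce ones on the right, with a bar at the mean of 3. The HFD points of Lama4, Lamb1, Lamb2, Lamc1, Nid2 and Lama1 lie below all ND points, those of Lamb3 above them, and Nid1 overlaps.

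Summed per length, the laminin α chains came to 40.9 ± 1.70 FPKM on ND and 27.2 ± 3.03 FPKM on HFD (mean ± SD, n = 3 each). Lama4 made up 68.0%, 69.3% and 60.8% of the α chain total on ND and 55.4%, 58.7% and 56.4% of it on HFD. Lama2 held 15.9 ± 0.619% on ND and 21.3 ± 5.83% on HFD (SD, n = 3), and these ranges did not overlap either. The share of Lamb3 among the β chains was 1.26 ± 0.117% on ND and 4.28 ± 0.907% on HFD (SD, n = 3). With 3 samples against 3, the exact two-sided permutation test cannot go below p = 0.1, which each of these 3 shares and the next 2 reached, and over the 11 shares tested the adjusted value was 0.22. Lama1 went from 1.03 ± 0.550% to 0.0543 ± 0.0505% of the α chains and Lama3 from 1.24 ± 0.275% to 2.13 ± 0.0897% (SD, n = 3), with the same exact permutation p and no overlap. The shares of Lamb1, Lamb2, Lama5, Lamc1 and Lamc3 overlapped between the diets.

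The integrins that bind laminin did not pass the test in either direction, with 0 of the 4 genes called by edgeR, 0 at an unadjusted p under 0.05 and 0 by DESeq2. Itga6 and Itga7, the α6 and α7 laminin receptors, were the most abundant α subunits per length on ND, at 25.5 ± 3.01 and 23.3 ± 3.12 FPKM (SD, n = 3), and these 2 levels overlapped. Itga6 read 212, 256 and 212 CPM on ND against 226, 243 and 152 CPM on HFD (log2 fold change -0.13, SE 0.20, edgeR adjusted p = 0.686). Itga7 (-0.24), Itga3 of the α3β1 receptor (0.09) and Itgb4 of the hemidesmosome (-0.37) also overlapped between the diets. The median log2 fold change of the 4 genes was -0.18.

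Itgb1, the β1 subunit that pairs with most matrix-binding α subunits, had the highest mean level per length of the integrin subunits on both diets, though Itgb2 exceeded it in HFD3. It read 559.9, 587 and 519 CPM on ND against 709.8, 687 and 794 CPM on HFD. The HFD values lay above the ND values (log2 fold change 0.40, SE 0.16), with an adjusted p of 0.125 by edgeR and 0.015 by DESeq2. Relative to Itgb1 in the same library, Itga6 was 1.46-fold lower on HFD and Itga7 1.58-fold lower, each without overlap (exact permutation p = 0.1, the smallest possible, and 0.125 adjusted over the 15 ratios tested).

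Among the collagen receptors, Itga11, the α11 subunit of fibroblasts, rose. It read 6.63, 8.92 and 6.59 CPM on ND against 12.9, 13.3 and 15.2 CPM on HFD. The HFD libraries were close to each other and above all ND libraries, a 1.87-fold rise (log2 fold change 0.90, SE 0.19, edgeR adjusted p = 0.0218). The call was lost without ND1, ND3 or HFD1 (adjusted p up to 0.0903 by edgeR). The summed level of 7 progenitor and fibroblast genes overlapped between the diets, at 2225 to 2617 CPM on ND against 2291 to 2716 CPM on HFD, with 0 of the 7 called by edgeR, by DESeq2 or at an unadjusted p under 0.05. Their log2 fold changes were positive for 5 and negative for 2. Singly, 2 of the 7 did not overlap, 28.6% beside 40.9% of all genes. The part of these cells in the Itga11 result was not tested. Itga1, the most abundant collagen-binding α subunit, read 134, 125 and 103 CPM on ND against 138, 145 and 71.4 CPM on HFD (log2 fold change -0.04, edgeR adjusted p = 0.941). Itga2 and Itga10 lay between 0.632 and 2.72 CPM in all libraries and were not called.

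Of the subunits that recognise the RGD sequence of fibronectin, vitronectin and osteopontin, Itga5, the α5 chain of the main fibronectin receptor, rose. It read 58.6, 58.1 and 49.6 CPM on ND against 139.6, 79.1 and 165 CPM on HFD. All HFD libraries were above ND, with HFD2 the nearest, and the rise was 2.31-fold (log2 fold change 1.21, SE 0.26, edgeR adjusted p = 0.0249). Itga8, an α subunit of mesenchymal and smooth muscle cells, fell from 3.99, 2.95 and 3.04 CPM on ND to 1.2, 1.68 and 0.920 CPM on HFD. Its 6 values did not overlap (log2 fold change -1.39, SE 0.34, edgeR adjusted p = 0.0344). The mural cell sum given above was also lower in every HFD library, and its part in the Itga8 result was not tested. The Itga5 call was lost without ND1, ND2, ND3 or HFD1 (adjusted p up to 0.0962 by edgeR), and the Itga8 call passed only without HFD2 among the 6 fits that left out a library (up to 0.134).

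Itgav, the αv chain shared by several RGD receptors, read 41.7, 42.9 and 54.6 CPM on ND against 80.4, 60.8 and 124 CPM on HFD. Its ranges were separate, and the adjusted p was 0.0533 by edgeR and 0.00903 by DESeq2 (log2 fold change 0.93, SE 0.26). Itgb5, the most abundant of the RGD group with 52.1 ± 12.6 FPKM on ND and 73.6 ± 8.23 FPKM on HFD (SD, n = 3), was not called. It read 165, 231 and 150.1 CPM on ND against 228, 267 and 285 CPM on HFD, so HFD1 lay inside the ND range (log2 fold change 0.51, edgeR adjusted p = 0.113). Itgb3, Itga2b and Itgb8 had log2 fold changes of 0.50, 0.19 and 0.09 and overlapping ranges. Itgb6, an epithelial subunit, was the 1 member not tested. It had counts of 1, 0 and 23 on ND and none in any HFD library, and ND3, which held the 23, was the library with 37.5 CPM of Epcam, an epithelial marker at 0.218 CPM or less elsewhere.

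Leukocyte integrins gave the highest folds of the family. Itgax (CD11c), Itgam (CD11b), Itgal (CD11a) and Itgad (CD11d) encode the α chains that pair with the β2 chain, encoded by Itgb2 (CD18), in complement receptors and in receptors for ICAMs. Itgb2 lies on chromosome 10, and the 4 α genes lie on the plus strand of chromosome 7 (GRCm38). Itgal is at chr7:127296260-127335138, Itgam at chr7:128062640-128118491, Itgax at chr7:128129547-128150657 and Itgad at chr7:128154376-128223816. Gaps of 728, 11.1 and 3.72 kb separate them in that order.

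The common chain Itgb2 read 50.8, 35.8 and 40.3 CPM on ND against 388, 240.4 and 854 CPM on HFD. Its lowest HFD value was above every ND value, and it rose 11.7-fold (log2 fold change 3.55, SE 0.48, edgeR adjusted p = 0.00796). Itgax read 10.3, 6.02 and 8.68 CPM on ND against 134, 128 and 323 CPM on HFD. The 2 ranges were far apart, with HFD3 above the other HFD libraries, and the rise was 23.4-fold (log2 fold change 4.54, SE 0.45, edgeR adjusted p = 0.00448). Itgad was scarce on ND, with 6, 4 and 9 counts, and had 88, 65 and 171 counts on HFD. Itgad rose 18.5-fold in CPM (log2 fold change 4.17, SE 0.50, edgeR adjusted p = 0.00642), again with HFD3 highest and no overlap. Per length, Itgb2 came to 14.1 ± 2.59 FPKM on ND and 163 ± 105 FPKM on HFD (SD, n = 3), where its range, 79.4 to 281 FPKM, reached over that of Itgb1, 169.7 to 195 FPKM. Itgb2, Itgax and Itgad passed in each of the 6 fits that left out a library, with adjusted p-values of at most 0.046 by edgeR.

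Itgam rose less, from 19.8, 16.7 and 16.5 CPM on ND to 54.3, 35.3 and 119.6 CPM on HFD. HFD3 was again the highest and the ranges did not meet, a 3.95-fold rise (log2 fold change 1.98, SE 0.42, edgeR adjusted p = 0.0243). Without ND1, ND2, ND3 or HFD1 it did not pass (adjusted p up to 0.0908 by edgeR). Itgal, the lymphocyte-rich LFA-1 α chain, read 11.4, 10.9 and 10.8 CPM on ND against 17.3, 13.3 and 14.7 CPM on HFD. All HFD values were above ND, but the difference did not pass (log2 fold change 0.46, SE 0.16, edgeR adjusted p = 0.0855). The summed level of 8 T and NK cell genes overlapped, at 12.9 to 15.5 CPM on ND against 13.1 to 16.8 CPM on HFD, with 0 of the 8 called by edgeR, by DESeq2 or at an unadjusted p under 0.05. Their log2 fold changes were positive for 4 and negative for 4. Singly, 3 of the 8 did not overlap between the diets, 37.5% beside 40.9% of all genes. The part of these cells in the Itgal result was not tested.

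**Figure D3:**
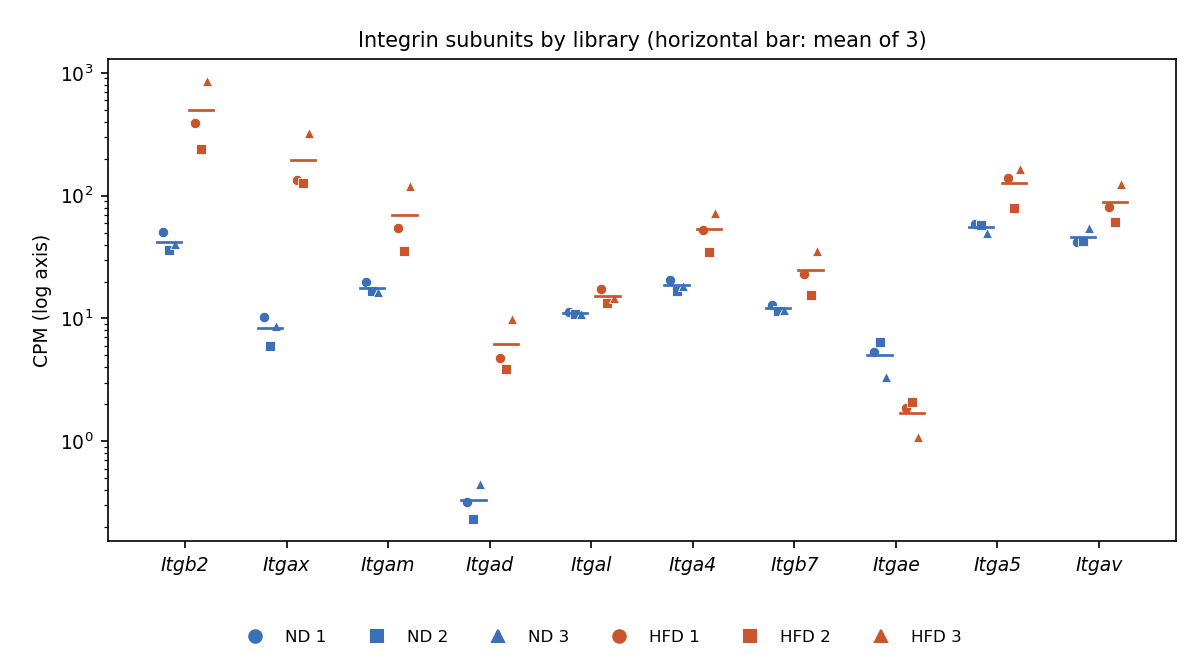
CPM on a log axis of 10 integrin subunits in each library, with a bar at the mean of 3. The 10 genes were picked and leave out members of the same roles that overlap, such as Itga9 and Itgb5. Their ranges are all separate between the diets, as are those of 52.6% of tested members and 40.9% of all genes. HFD3 is the highest HFD library for Itgb2, Itgax, Itgam, Itgad, Itga4, Itgb7, Itga5 and Itgav, and Itgae is the gene that lies lower on HFD.

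Some exons are shared with other genes, which limits the level of Itgam, Itgad and Itga10 against other genes. Itga10 shares 33.5% of its exon length with Gm42957 on the same strand, which had 0 or 1 counts in each library. GENCODE M21 places 68.7% of the exon length of Itgam also in Gm49368, a protein-coding model on the same strand that had 0 to 3 counts in each library. How reads in shared exons were counted was not given in the sources used here, and the length behind the deposited FPKM was 4969 bases, close to the whole exon length of 5024 bases, so the level of Itgam may be understated. The exons of Itgad overlap other genes over 19.7% of their length. Cox6a2 on its opposite strand, a muscle cytochrome oxidase subunit, had 2, 2 and 1 counts on ND and 23, 10 and 41 counts on HFD (log2 fold change 3.87, SE 0.70, edgeR adjusted p = 0.0147), and reads of these 2 genes cannot be told apart without strand.

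The upstream sequence of the neighbours Itgam and Itgax is shown because both rose while differing in size. GAGGAA, one form of the site of the myeloid factor PU.1, was searched in the 250 bases before each RefSeq start. Both strands were read (GAGGAA or TTCCTC), and other forms of the site were not searched. Capitals mark a match. The sequences are from the RefSeq promoter table on GRCm38.p6, plus strand, at chr7:128062390-128062639 for Itgam and chr7:128129300-128129549 for Itgax.

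Itgam: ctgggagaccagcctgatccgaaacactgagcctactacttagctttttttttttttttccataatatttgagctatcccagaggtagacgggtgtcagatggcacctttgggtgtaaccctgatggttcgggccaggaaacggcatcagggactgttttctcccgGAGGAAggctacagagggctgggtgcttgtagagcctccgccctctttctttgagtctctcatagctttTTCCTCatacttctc

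Itgax: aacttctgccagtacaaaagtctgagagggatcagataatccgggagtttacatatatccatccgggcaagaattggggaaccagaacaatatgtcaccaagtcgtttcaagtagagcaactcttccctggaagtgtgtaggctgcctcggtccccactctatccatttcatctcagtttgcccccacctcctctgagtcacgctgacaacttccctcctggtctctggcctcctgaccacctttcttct

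The Itgam window held 2 matches to this form, which began 84 and 15 bases before the start, and the Itgax window held 0. RefSeq windows were matched for 24 of the 39 members, some with more than one start. Itgb2, Itgal and Itgad were among those without a window. Of the 27 member windows, 14 held GAGGAA, 51.9%, beside 23.4% of all 32536 windows. These matches lay in Itgam, Itga5, Itga11 and Lamb3, which rose, and otherwise in members not called or not tested. Lama2, Lama5, Lamb1, Lamb2, Nid1 and Itgb1 were among the latter. Itga4, which rose, and Itga8, which fell, held no match. GGGCGG (or CCGCCC), the GC box, was in 37.0% of member windows and 33.0% of all, and TATAAA (or TTTATA), the TATA box, in 0 of 27 and in 12.3% of all. These are letter matches, with no measurement of binding.

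Partner subunits were next compared within each library as the log2 ratio of FPKM. Itgax to Itgam stood at -0.88, -1.41 and -0.86 on ND and at 1.36, 1.92 and 1.5 on HFD, a 6.25-fold change of the ratio. In the deposited FPKM their order turned. As Itgam levels may be understated for the reason given above, which of the 2 was higher on HFD is not settled. Itgax to Itgal changed 15.9-fold, from 0.31, -0.40 and 0.14 to 3.40, 3.72 and 4.91. In both, all HFD libraries were above all ND libraries. The ratio of Itgad to Itgam was 5.07-fold higher on HFD (2.34 on the log2 scale, but 1.23 with a pseudocount of 0.1 FPKM, with Itgad at 4 to 9 counts on ND) and that of Itgam to Itgal 2.55-fold higher, each without overlap. Each of the 4 ratios reached the exact permutation p of 0.1, the smallest possible, and 0.125 after adjustment over 15 ratios. By deposited FPKM, Itgax had the highest mean level per length of the α subunits on HFD, at 40.8 ± 23.1 FPKM (SD, n = 3). Itga5 at 26.1 ± 8.96 and Itga6 at 23.1 ± 5.41 FPKM came next, and their ranges overlapped with that of Itgax. The limit on Itgam levels holds for this order too.

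The same β2 genes were set against Adgre1 (F4/80), a macrophage gene that read 48.5, 41.7 and 47.1 CPM on ND against 318, 211 and 505 CPM on HFD. Relative to Adgre1, Itgb2 was 1.45-fold and Itgax 3.07-fold higher on HFD. Itgam was 2.04-fold and Itgal 5.19-fold lower relative to the same gene. None of these 4 ratios overlapped between the diets (exact permutation p = 0.1, 0.125 adjusted). They hold for Adgre1 only, which rose 7.52-fold. The 10 macrophage genes ran from 0.965-fold for Cd163 to 13.2-fold for Cd68, both named after their values were seen. Ratios to another macrophage gene were not computed and could differ in size and direction. Among 6 genes of lipid-associated macrophages the summed level was 331 to 484 CPM on ND against 2563 to 10044 CPM on HFD, with 5 called higher, and HFD3 was again the highest. The 6 dendritic cell genes overlapped as a sum, at 40.1 to 47.7 CPM on ND against 37.0 to 42.3 CPM on HFD, with 1 called, Ccr7, which rose 3.22-fold (edgeR adjusted p = 0.0314). Of the 6 log2 fold changes 3 were positive and 3 negative. Most of that sum on ND was Zbtb46 (-0.43). Like Xcr1 (-0.72), it was lower in every HFD library than in any ND library. Neither passed the test (edgeR adjusted p = 0.0949 and 0.186). Ccr7, Zbtb46 and Xcr1, like Rgs5 and Pdgfrb above, were named after their values were seen. Of 6 neutrophil genes 3 were tested, and S100a8 and Csf3r were called higher. S100a9 had a log2 fold change of -0.81 and was not called (edgeR adjusted p = 0.412). The sums, 5.56 to 9.21 CPM on ND against 13.4 to 18.6 CPM on HFD, rested on at most 324 counts in a library. These 3 genes, too, were named after their values were seen. The part of these cell types in the integrin results was not tested.

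**Figure D4:**
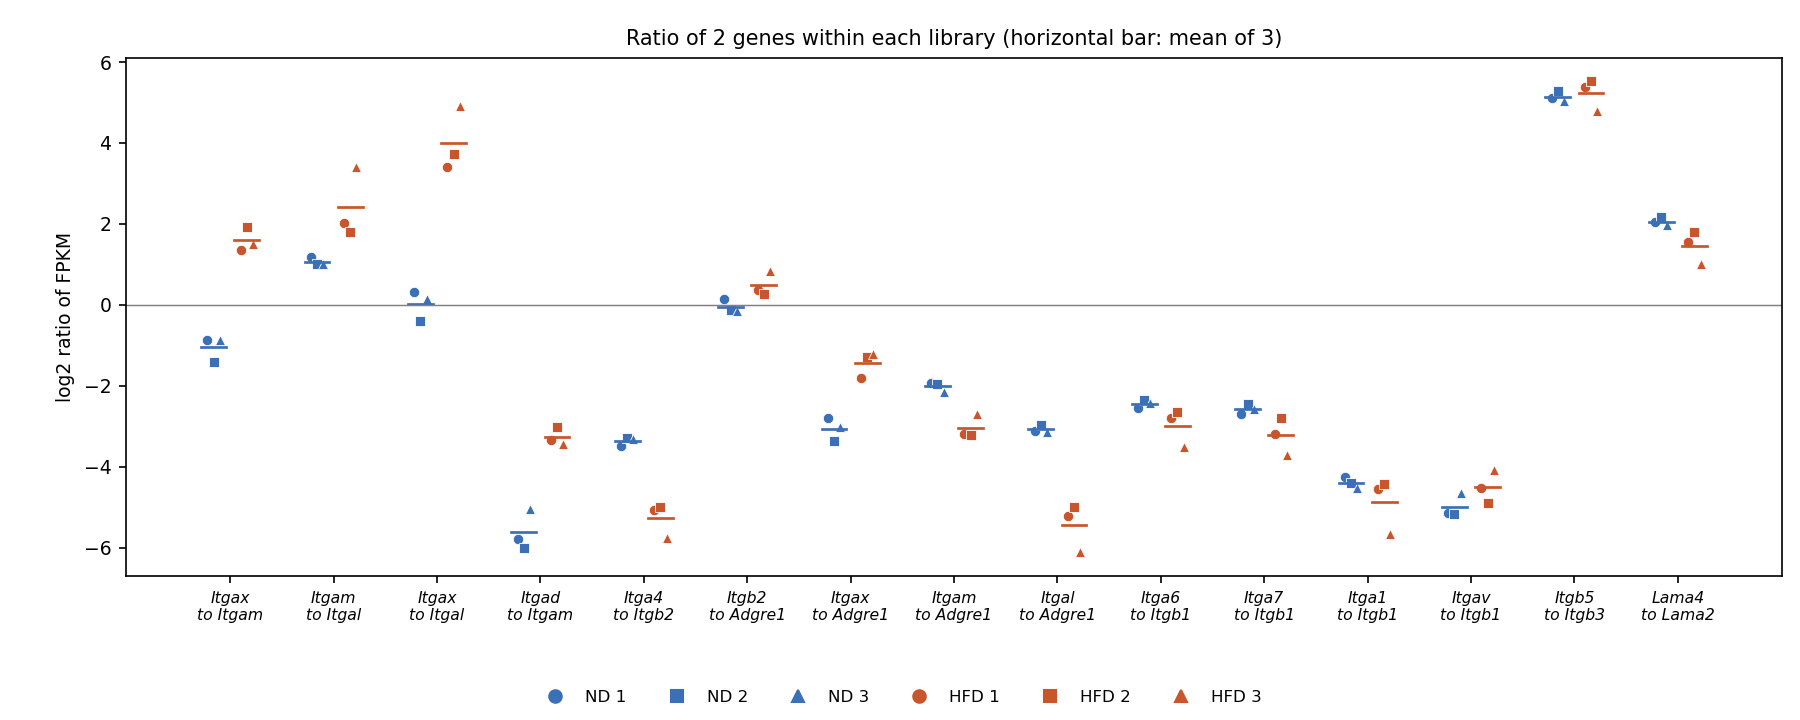
Log2 ratio of FPKM of 15 gene pairs within each library, with a bar at the mean of 3 and the line at equal levels. Itgax to Itgam lies below 0 in all ND libraries and above 0 in all HFD libraries, and 12 of the 15 ratios are separate between the diets. The pairs were picked and several share a gene. No share over other gene pairs was computed, so this count describes these pairs only. The place of Itgax to Itgam against the line depends on the Itgam level, which may be understated.

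The remaining leukocyte subunits went in opposite directions. Itga4, the α4 chain of the VCAM-1 receptor on monocytes and lymphocytes, read 20.6, 16.6 and 18.5 CPM on ND against 52.7, 34.7 and 71.8 CPM on HFD. It rose 2.86-fold without overlap (log2 fold change 1.51, SE 0.26, edgeR adjusted p = 0.0131), a call lost without ND1, ND2, ND3 or HFD1 (adjusted p up to 0.0613 by edgeR). Against Itgb2, however, Itga4 was 3.74-fold lower on HFD (exact permutation p = 0.1, 0.125 adjusted). Itgae (CD103), the αE chain of epithelial T cells and some dendritic cells, fell. It read 5.33, 6.43 and 3.34 CPM on ND against 1.85, 2.10 and 1.09 CPM on HFD, with the highest HFD value below the lowest ND value (log2 fold change -1.58, SE 0.38, edgeR adjusted p = 0.0333). Without ND1, ND2, HFD1 or HFD3 the Itgae call was lost (adjusted p up to 0.107 by edgeR).

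Itgb7, the β7 chain that pairs with both α4 and αE, read 12.8, 11.6 and 11.8 CPM on ND against 23.0, 15.4 and 35.6 CPM on HFD. The ranges were separate, and the adjusted p was 0.0518 by edgeR and 0.00957 by DESeq2 (log2 fold change 1.03, SE 0.29). Itga9 read 25.8 to 29.0 CPM on ND against 21.3 to 27.2 CPM on HFD (log2 fold change -0.22, edgeR adjusted p = 0.302).

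The HFD libraries were ordered alike across most called members. HFD3 was the highest HFD library in 7 of the 8 members that rose, and HFD2 the lowest in 6 of the 8. Of the 5 members that fell, HFD3 was the lowest HFD library in 4. In the 25 tested members not called the highest HFD library was HFD3 in 11, HFD2 in 10 and HFD1 in 4. Itgb2, for instance, was 240.4 CPM in HFD2 and 854 CPM in HFD3, while Nid2 was 93.4 and 62.0 CPM. The macrophage sum had the same order, with HFD2 lowest at 1798 CPM and HFD3 highest at 3481 CPM, and its part in the order was not tested.

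Other genes of the same structures were read from the same fit. Of 41 genes of the rest of the basement membrane and other laminin receptors, 37 were tested, 3 rose and 4 fell, which is 18.9% of those tested beside 15.9% of all genes, with a median log2 fold change of -0.24. Those that fell were Col4a3 (-2.43), Col4a4 (-2.03) and Col4a5 (-1.19), which encode the minor collagen IV chains, and Npnt (-2.29), which encodes the integrin α8β1 ligand nephronectin (edgeR adjusted p = 0.0259, 0.0255, 0.00546 and 0.0399). Without ND1, ND2, ND3 or HFD1 at most 1 gene of this list rose, and without ND1, ND2, ND3, HFD1 or HFD3 only 1 or 2 fell. ND3 read 15.1 CPM of Col4a3 and 15.4 CPM of Npnt, above ND1 with 7.44 and 5.98 CPM. The syndecans Sdc1 (2.15) and Sdc3 (1.74) and the fibulin Fbln2 (0.62) rose (edgeR adjusted p = 0.02, 0.0116 and 0.0327).

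Of 40 integrin activators and focal adhesion proteins, 39 were tested, and 13 rose and 0 fell, 33.3% of those tested beside 15.9% of all genes (9.85% higher and 6.04% lower), with a median of 0.28, and with the replicate number as a block 7 rose. Among them 2 were lower at an unadjusted p under 0.05 and DESeq2 called 1 lower, and without ND1, ND2, ND3 or HFD1 between 3 and 6 rose. The 4 with the highest fold change were Lpxn (3.31), Syk (2.55), Fermt3 (2.33) and Apbb1ip (2.07), with edgeR adjusted p-values of 0.00895, 0.00958, 0.0101 and 0.00988. Leupaxin, the kinase SYK, kindlin-3 and RIAM, which these genes encode, are chiefly known from blood cells. Lpxn read 5.39, 5.56 and 5.49 CPM on ND against 46.4, 24.5 and 91.8 CPM on HFD, with HFD3 the highest here too. Tln1, the talin that switches on all integrin classes, rose as well (log2 fold change 1.05, SE 0.22, edgeR adjusted p = 0.0226) and was named after its value was seen.

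Of 33 integrin ligands outside the laminins, 23 were tested, 6 rose and 1 fell, 30.4% of those tested beside 15.9% of all genes (9.85% higher and 6.04% lower), with a median of 0.12. Without ND1, ND2, ND3, HFD1 or HFD3, 2 or 3 rose. Spp1, encoding osteopontin, had 9, 3 and 109 counts on ND and 638, 316 and 5328 counts on HFD, with ND3 the highest on ND and HFD3 on HFD (log2 fold change 5.84, SE 1.48, edgeR adjusted p = 0.0391). Mfge8, whose product bridges dying cells to αv integrins, rose 5.61-fold and evenly, with 281, 299 and 251 CPM on ND against 1615, 1459 and 1587 CPM on HFD (log2 fold change 2.49, SE 0.18, edgeR adjusted p = 0.00171). The thrombospondin genes Thbs1 (2.02) and Thbs2 (1.98) rose, and Vtn, encoding vitronectin, fell (-1.24) (edgeR adjusted p = 0.0127, 0.00259 and 0.00888). Icam1 and Vcam1, the ligand genes of the β2 and α4 integrins, had log2 fold changes of 0.74 and 0.62 and also passed (edgeR adjusted p = 0.0318 and 0.0488), and were named after their values were seen.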

How the data were processed

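RNA-Seq of epididymal fat was analysed in 3 ND and 3 HFD samples, grouped by the diet label. The authors deposited raw counts per gene, without normalization, and FPKM values of these genes. The paper names GRCm38, TopHat and Cufflinks, whereas the submitters' processing notes list CASAVA 1.8, fastp, HISAT2 2.0.5, featureCounts 1.5.0-p3 and DESeq2 1.20.0 with the human builds GRCh38 and hg38. The identifiers are mouse genes, and 54495 of 54532 were found in GENCODE M21 (GRCm38), which gave symbols and coordinates.

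Counts were tested over all genes with edgeR 4.0.16 in R 4.3.3 (filterByExpr, TMM, robust quasi-likelihood F-test, diet as the only factor), with Benjamini-Hochberg adjustment over 15751 genes and a threshold of 0.05. The paper used DESeq2, run here as an alternative (DESeq2 1.42.0), as were limma-voom and limma on log2(FPKM + 1) or log2(FPKM + 0.1) (limma 3.58.1), filtered at an FPKM of 0.5 in at least 3 libraries, other scalings and filters, a replicate block and leaving out each library. Levels of different genes were compared in FPKM, and shares and ratios by exact two-sided permutation tests. The fits were tested on simulated data. All library pairs differed by more than sampling noise (chi-square per gene of 19.0 or more).

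Members, lists and tests were chosen with earlier results of these data known. 1 member is counted in the totals but not reported here singly. By rule, every called member is given by library, as are members not called that led their role in FPKM or that DESeq2 called. Of each other list up to 4 called genes are named in each direction, those with the largest change, besides those said to be named after their values were seen.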

Additional observations from a re-analysis of the deposited data

How the results depend on the processing

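Main counts were 8 members higher and 5 lower. Leaving out 1 library gave 3 to 11 higher and 0 to 7 lower, with the fewest lower members without HFD1 and the most calls without HFD2. Over all genes the same fits called 474 (without HFD1) to 3940 (without HFD2) in place of 2504, DESeq2 called 3961 and log2(FPKM + 1) without a filter 649. On the FPKM scale 3 members fell with either pseudocount under the filter, and without the filter 2 rose and 2 fell. The Itgad to Itgam ratio dropped to 1.23 (log2) with a pseudocount of 0.1 FPKM.

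With the replicate number as a block 8 members rose and 4 fell, Itga5 and Itga8 losing and Itgav gaining the call, and 1886 genes were called in all. Same-numbered libraries did not deviate together (correlations of -0.07, -0.04 and -0.002). With 3 libraries per diet these values cannot decide whether the numbers pair the samples. In the other lists the block left 1 basement membrane gene lower and 7 activators higher.

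Without 1 library, basement membrane genes gave 0 to 3 higher and 1 to 6 lower, activators 3 to 15 higher and 0 to 1 lower, and ligands 2 to 7 higher. Without the count filter 1 basement membrane gene was higher, and DESeq2 called 1 activator lower.

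Signs turned only for members that were not called, and only when a library was left out. Over the 6 such fits the log2 fold change ran from -0.15 to 0.67 for Itgb8 (negative without ND1, ND2 or HFD2), from -0.20 to 0.21 for Itga1 (positive without ND1 or HFD3), from -0.37 to 0.17 for Itga10 (positive without HFD1 or HFD2), from -0.0073 to 0.33 for Lama3 (negative without ND1), from -0.43 to 0.019 for Lama5 (positive without ND3 or HFD3), from -0.19 to 0.28 for Itga3 (negative without ND2 or HFD1), and from -0.26 to 0.033 for Itga6 and -0.36 to 0.051 for Nid1 (positive without HFD3). What caused these shifts was not tested. Another scaling moved the median of all genes by at most 0.022. Lama4, Nid2, Itgax and Itgb2 were called in each of the 12 alternatives that kept all libraries. Depth limits Lama1 on HFD, Itgad on ND and Itgb6.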

Other observations

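Between the first base of Itgal and the last of Itgad, 35 other genes were tested, of which 2 rose and 3 fell. Over all genes tested, 9.85% rose and 6.04% fell. The median log2 fold change of the 35 genes was -0.15. Those that rose were Pycard, which encodes the inflammasome adaptor ASC (log2 fold change 1.8, SE 0.39, edgeR adjusted p = 0.0256), and Cox6a2, given above with its overlap with Itgad. Zfp768 (-0.65), Ctf1 (-1.69) and Bckdk (-0.66) fell (edgeR adjusted p = 0.0315, 0.0115 and 0.0127). These genes were named after their values were seen.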
